A study of Rattus norvegicus with 28 samples.

Results

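The expression of 6 antioxidant enzyme genes was followed in the spinal cord and brain of rats with a neuronal deficiency of cytochrome c oxidase, the terminal complex of the respiratory chain. They were taken by gene identifier, as Sod1 (ENSRNOG00000002115), Sod2 (ENSRNOG00000019048), Cat (ENSRNOG00000008364), Gclc (ENSRNOG00000006302), Nqo1 (ENSRNOG00000012772) and Hmox1 (ENSRNOG00000014117). All 6 identifiers were present among the 30560 of the spinal cord and brain tables, and all 6 passed the filter on low counts in both tissues. The labels list 28 samples of RNA from rats labelled mtCO3mut and WT. There are 4 samples per genotype from spinal cord, 4 from brain and 6 from spinal cord at an early stage. The spinal cord counts analysed here carry the name lumbar, while the sample titles say spinal cord only. The title says that the deficiency was made by editing mitochondrial DNA, and the design text calls the deficient rats COXⅢNeuN-Cre, NeuN being a nuclear protein of neurons and Cre a recombinase. All cells of the tissue entered the RNA, neurons and others alike. The labels give no age, sex or pooling, and they do not say whether each sample is a separate animal. The p-values therefore set differences between groups against the variation among these libraries, and part of that variation may be technical.

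In the count tables, columns are named by a mark, plus or minus, beside a number, and no genotype is written there. The plus mark was taken to mean mtCO3mut and the minus mark WT. Neither the labels nor the tables state this, so libraries are called plus-marked or minus-marked. Within each mark they are numbered 1 to 4 in the order of the numbers in the column names. The same 8 numbers occur in both tissues, so that a library has the same name in both, but plus-marked and minus-marked libraries share none. If the marks were the other way round, every direction between them would reverse. The 12 columns of the early-stage table could not be tied to a genotype and were not analysed here. Total counts ranged from 21008418 to 40359757 in plus-marked and from 39952615 to 47597097 in minus-marked spinal cord. In brain they ranged from 64782608 to 82776333 in plus-marked and from 33105800 to 62851529 in minus-marked libraries. Plus-marked library 2 was the shallowest spinal cord library, and minus-marked library 4 stood apart in brain. The latter had 36.1% of its counts in the 10 genes most abundant on average over all brain libraries. In these genes plus-marked brain libraries had 22.05% to 26.4% and the remaining minus-marked ones 17.8% to 18.8%. Where leaving out plus-marked spinal cord library 2 or minus-marked brain library 4 changed a call or a direction of the 6 genes, the value without it is given below. The tables name no genes and the reference table matched no other identifier, so markers of neurons, glia or blood could not be examined and the tissue labels were not checked against them.

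Respiration leaks electrons to oxygen and forms superoxide, which superoxide dismutases turn into hydrogen peroxide. Sod1 encodes the copper- and zinc-containing dismutase found mainly in the cytosol, and Sod2 the manganese dismutase of the mitochondrial matrix. Mutations of the human SOD1 gene cause a familial form of amyotrophic lateral sclerosis, the motor neuron disease named in the title of the study. Catalase, encoded by Cat, breaks down hydrogen peroxide in peroxisomes. Gclc encodes the catalytic subunit of glutamate-cysteine ligase, which carries out the rate-limiting step of glutathione synthesis. Nqo1 encodes a quinone reductase and Hmox1 the inducible heme oxygenase. Hmox1, Nqo1 and Gclc are textbook targets of the transcription factor Nrf2, which acts through antioxidant response elements.

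Sod1 was lower in plus-marked than in minus-marked spinal cord and was the 1 gene of the 6 that passed the test there. Normalised counts in CPM (reads of a gene scaled to a fixed library size, with TMM factors within the tissue) were 36.9, 23.9, 29.95 and 36.4 in plus-marked libraries 1 to 4, against 47.3, 53.2, 49.4 and 50.9 in minus-marked libraries 1 to 4. Every plus-marked library lay below every minus-marked one. The means were 31.8 ± 6.12 CPM in plus-marked and 50.2 ± 2.48 CPM in minus-marked spinal cord (SD, n = 4 each). On the log2 scale the fold change was -0.66 (SE 0.13), a level 0.635 times that of the minus-marked libraries with a 95% interval of 0.520 to 0.774, and the edgeR quasi-likelihood test gave an adjusted p of 0.00801. Of all 17134 genes tested in spinal cord, 3.65% had a smaller p. In whole tissue, fewer cells of a type and less RNA per cell cannot be told apart. Plus-marked spinal cord libraries 2, 3 and 4 were also shallower than every minus-marked one. The part of depth in the Sod1 difference was not tested.

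That 1 of 6 genes has to be read against a tissue in which 13.5% of the genes tested were called, 6.66% lower and 6.83% higher. The marks did not overlap for Sod1 alone among the 6, where 20.2% of all genes tested did not overlap. The median absolute log2 fold change was 0.22 over the 6 genes and 0.24 over all genes tested. The share called and the typical size of change over the 6 genes were thus near those of the tissue as a whole.

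**Figure D1:**
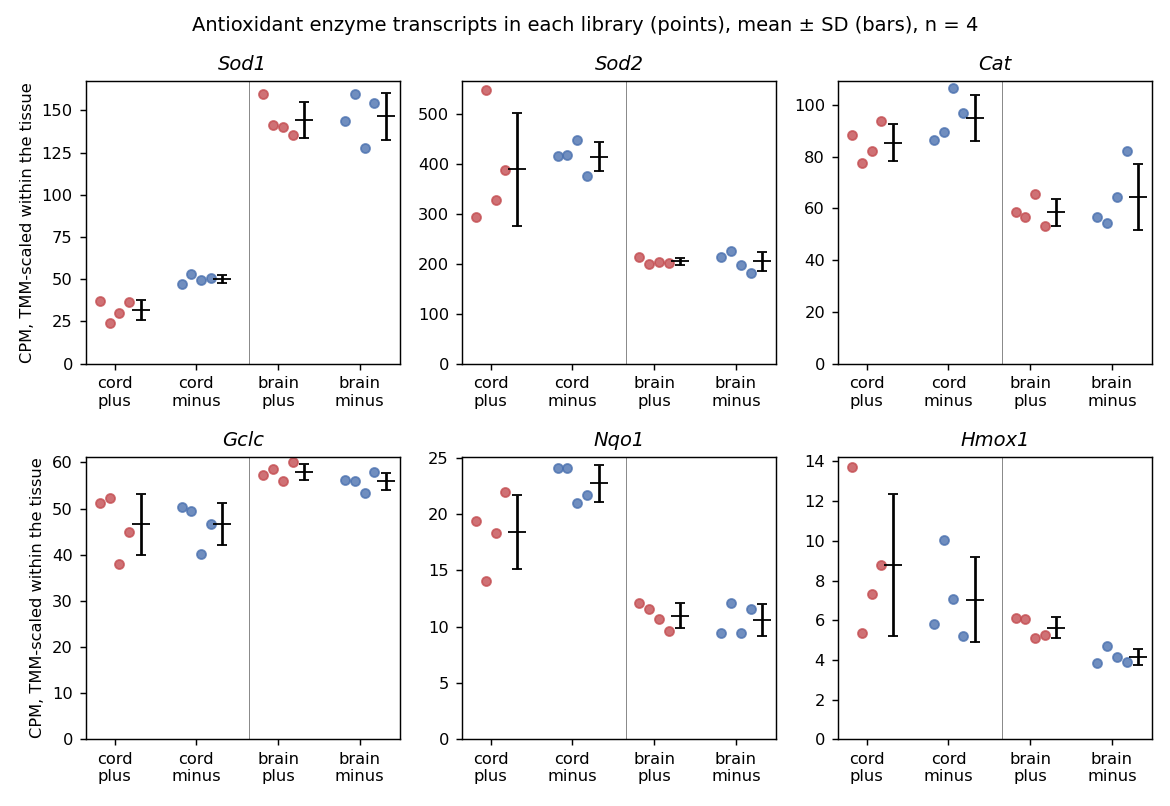
Normalised counts (CPM, TMM-scaled within each tissue, axes from 0) of the 6 genes in plus-marked and minus-marked spinal cord and brain libraries; each point is a library, and the bars give mean ± SD (n = 4). Sod1 averaged 31.8 CPM in plus-marked and 50.2 CPM in minus-marked spinal cord with no overlap, while in brain it averaged 144 and 147 CPM.

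The lower Sod1 level in spinal cord held when any 1 library was left out. Over those 8 fits the log2 fold change lay between -0.75 and -0.55 and the edgeR adjusted p between 0.00732 and 0.0275. Without plus-marked library 2, the shallowest one and the one with the lowest Sod1 level, it was -0.55 with an adjusted p of 0.00785. Column names also hold a lane-like code, and code L24 is shared by plus-marked libraries 1, 3 and 4 and by minus-marked library 3. Within L24 the log2 fold change was -0.53 and the edgeR adjusted p of 0.187 missed the threshold, with the single minus-marked library assumed to be as variable as the rest. The libraries of the other codes hold 1 plus-marked library, number 2, so their value of -1.09 restates that library, and its spread comes from minus-marked libraries 1, 2 and 4 alone. With L24 against the rest as a term it was -0.79 with an adjusted p of 0.00665.

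In brain Sod1 did not pass the test. It had 160, 141, 140 and 136 CPM in plus-marked libraries 1 to 4, and 144, 160, 128 and 154.6 CPM in minus-marked libraries 1 to 4. The plus-marked libraries all lay within the range of the minus-marked ones or at its upper end. The log2 fold change was -0.02 (SE 0.09, 95% interval -0.21 to 0.17, edgeR adjusted p = 0.962), so the interval does not reach the value measured in spinal cord. Tested directly as an interaction in a joint fit of the 16 libraries, the effect of mark on Sod1 in spinal cord minus that in brain was -0.64 on the log2 scale (SE 0.16, edgeR adjusted p = 0.0375). In that fit 2.79% of the 17823 genes tested were called, 1.77% with the more negative and 1.03% with the more positive effect in spinal cord, and Sod1 was the 1 member called. This call depended on single libraries, since 11 of the 16 fits with 1 library left out gave an adjusted p above 0.05, up to 0.0788. It was kept without plus-marked spinal cord library 1, 2 or 4, minus-marked spinal cord library 4 or minus-marked brain library 2. Without minus-marked brain library 4 the adjusted p was 0.0513. The difference itself stayed between -0.73 and -0.53. With the library number as a block, a pairing that the labels do not state, the edgeR adjusted p was 0.0206. In that fit the call was lost in 4 of 16 fits with 1 library left out, which are not 16 separate checks. For Hmox1 and Cat the difference between the tissues was not called, at -0.11 and -0.021, and it was 0.054 and 0.021 for these genes without plus-marked spinal cord library 2.

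The start regions of both dismutase genes are shown because Sod1 and Sod2 encode the enzymes of superoxide removal. They cover 250 bases before and 50 after the start of each gene, 5′ to 3′ on the gene's strand, from RefSeq on build GRCr8, which is not the build named for the counts, and 5 of the 6 genes had an entry. Sod1 is at chr11:42942573-42942872 on the plus strand and Sod2 at chr1:50050119-50050418 on the minus strand. Capitals mark matches on either strand to the core of the antioxidant response element (TGACNNNGC), the GC box (GGGCGG) and the TATA box (TATAAA).
Sod1: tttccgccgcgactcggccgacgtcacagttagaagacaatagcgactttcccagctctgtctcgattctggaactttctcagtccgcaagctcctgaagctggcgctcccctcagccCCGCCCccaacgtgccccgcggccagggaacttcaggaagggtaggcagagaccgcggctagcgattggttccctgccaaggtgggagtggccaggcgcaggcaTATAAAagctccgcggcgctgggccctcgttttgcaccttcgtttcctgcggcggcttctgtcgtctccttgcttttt
Sod2: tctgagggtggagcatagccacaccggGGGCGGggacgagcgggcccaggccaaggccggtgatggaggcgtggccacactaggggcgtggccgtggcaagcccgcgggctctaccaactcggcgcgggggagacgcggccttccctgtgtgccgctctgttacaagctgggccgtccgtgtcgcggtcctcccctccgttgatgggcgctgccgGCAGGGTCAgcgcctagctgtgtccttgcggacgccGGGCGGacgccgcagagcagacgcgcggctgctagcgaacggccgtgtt
The Sod1 window held 1 TATA box match and 1 GC box match, the GC box on the opposite strand, and no match to the antioxidant response element core. The Sod2 window held 1 match to that core, on the opposite strand, 2 GC box matches and no TATA box match. Of 33469 start regions of the same length, 12.1% held the element core, 33.1% the GC box and 14.2% the TATA box. Among the others, Nqo1 and Gclc each had 1 GC box and 1 TATA box match and no match to the element core. Cat had none of the 3 motifs, and Hmox1 was the gene without an entry. These are matches of letters and do not show that a factor binds there, and sequence outside the windows was not searched.

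Sod2, the mitochondrial dismutase, did not pass the test in either tissue. In spinal cord it had 293, 548, 328 and 388 CPM in plus-marked libraries 1 to 4, against 417, 418, 448 and 376 CPM in minus-marked libraries 1 to 4. The plus-marked libraries spread around the minus-marked ones, with library 2 above all of them and libraries 1 and 3 below. The coefficient of variation was 29.0% in plus-marked and 7.07% in minus-marked spinal cord. The log2 fold change was -0.09 (SE 0.17, 95% interval -0.46 to 0.28, edgeR adjusted p = 0.756). Its sign rested on single libraries, since it was 0.01 without plus-marked library 1 and -0.30 without plus-marked library 2 (edgeR adjusted p = 0.977 and 0.131). In brain Sod2 averaged 205 ± 6.61 CPM in plus-marked and 205 ± 18.98 CPM in minus-marked libraries (SD, n = 4 each). The log2 fold change in brain was 0.00070 with a 95% interval of -0.18 to 0.18, and without minus-marked library 4 it was -0.056.

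Cat, which encodes catalase, was not called in either tissue. Its spinal cord levels were 88.3, 77.5, 82.2 and 93.6 CPM in plus-marked libraries 1 to 4, and 86.4, 89.7, 106 and 96.7 CPM in minus-marked libraries 1 to 4. The marks overlapped, and the log2 fold change of -0.15 (SE 0.10) had an edgeR adjusted p of 0.346. In brain the means were 58.5 ± 5.30 CPM in plus-marked and 64.3 ± 12.6 CPM in minus-marked libraries (SD, n = 4 each), with a log2 fold change of -0.14 (SE 0.12, adjusted p = 0.789 by edgeR). The highest brain value, 82.2 CPM, was that of minus-marked library 4, the library that stood apart. Without it the log2 fold change was -0.0029.

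Gclc, which limits glutathione synthesis, had the fold change closest to 1 of the 6 genes in spinal cord. There it averaged 46.6 ± 6.58 CPM in plus-marked and 46.7 ± 4.56 CPM in minus-marked libraries (SD, n = 4 each), with a log2 difference of -0.0031 (SE 0.12, edgeR adjusted p = 0.989). The 95% interval of -0.27 to 0.26 leaves room for changes of up to about 0.832-fold or 1.20-fold. In brain it was the least variable of the 6 genes, at 58.0 ± 1.78 CPM in plus-marked and 55.9 ± 1.89 CPM in minus-marked libraries (SD, n = 4 each). The brain log2 fold change was 0.05 (SE 0.07, 95% interval -0.10 to 0.21, edgeR adjusted p = 0.864).

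Nqo1, the quinone reductase, leaned lower in plus-marked spinal cord without passing the test. It had 19.4, 14.1, 18.3 and 21.9 CPM in plus-marked libraries 1 to 4, against 24.1, 24.1, 20.95 and 21.7 CPM in minus-marked libraries 1 to 4. Plus-marked library 4 lay within the minus-marked range and the other plus-marked libraries below it. On the log2 scale the difference was -0.30 (SE 0.14), with an unadjusted p of 0.0476 and an edgeR adjusted p of 0.163. Of all 17134 genes tested in spinal cord, 29.3% had a smaller p. Within code L24 it was -0.08, from 3 plus-marked libraries against minus-marked library 3 alone. Among the other codes it was -0.74, from plus-marked library 2 alone against 3 minus-marked libraries. Neither passed the threshold. In brain the means were 10.98 ± 1.10 CPM in plus-marked and 10.6 ± 1.42 CPM in minus-marked libraries (SD, n = 4 each), with a log2 fold change of 0.05 (SE 0.12, adjusted p = 0.939 by edgeR). The difference between the tissues, -0.36 (SE 0.19), was not called, at an edgeR adjusted p of 0.310.

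**Figure D2:**
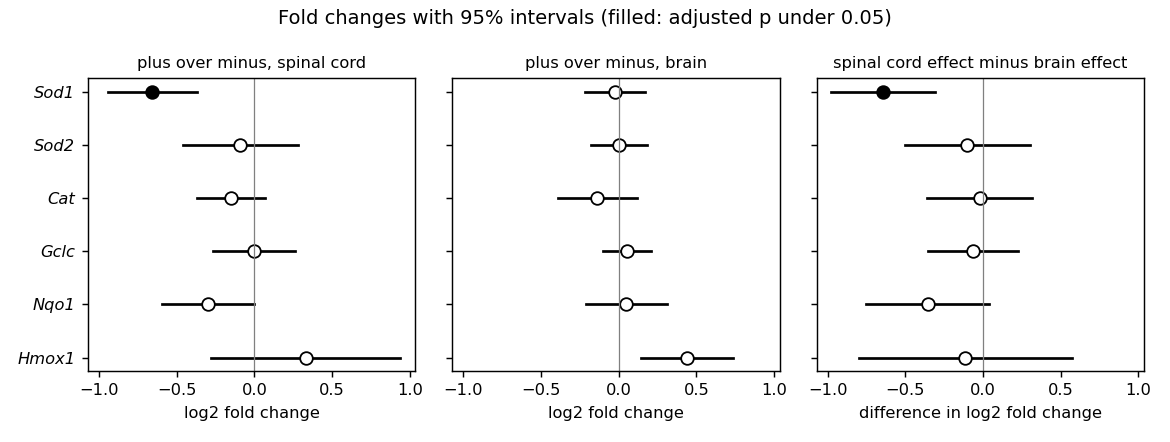
Log2 fold changes of plus-marked over minus-marked libraries in spinal cord and brain, and their difference (spinal cord minus brain), for the 6 genes; points are edgeR estimates and lines 95% intervals, filled where the adjusted p over all genes tested was under 0.05. Only Sod1 is filled, at -0.66 in spinal cord and at -0.64 for the difference between the tissues.

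Hmox1, the inducible heme oxygenase, was the most variable of the 6 genes in spinal cord. It had 13.7, 5.37, 7.31 and 8.79 CPM in plus-marked libraries 1 to 4, against 5.81, 10.02, 7.08 and 5.21 CPM in minus-marked libraries 1 to 4. The marks overlapped, and only plus-marked library 1 lay above all minus-marked libraries. The coefficient of variation was 40.6% in plus-marked and 30.4% in minus-marked spinal cord. The log2 fold change was 0.33 (SE 0.28, 95% interval -0.28 to 0.94, edgeR adjusted p = 0.458), and without library 1 it was 0.02. Within code L24 it was 0.49 and among the other codes -0.40, neither past the threshold, and each of these values rests on 1 library in 1 of its groups, minus-marked library 3 and plus-marked library 2.

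In brain Hmox1 was higher in each plus-marked library than in any minus-marked one, but it missed the threshold. The levels were 6.12, 6.06, 5.11 and 5.24 CPM in plus-marked libraries 1 to 4, and 3.86, 4.70, 4.13 and 3.90 CPM in minus-marked libraries 1 to 4. They averaged 5.63 ± 0.529 CPM in plus-marked and 4.15 ± 0.386 CPM in minus-marked brain (SD, n = 4 each), from 351 to 490 reads and from 138 to 278 reads. This was a log2 fold change of 0.44 (SE 0.14), 1.36-fold with a 95% interval of 1.10 to 1.67, at an unadjusted p of 0.00664 and an edgeR adjusted p of 0.331. In brain 0.243% of the 16860 genes tested were called, none of the 6 among them. At an unadjusted p under 0.05, which 9.13% of all genes passed there, Hmox1 alone of the 6 passed. DESeq2 called 1.25% of the genes in brain and none of the 6. The marks did not overlap for 4.95% of all genes tested in brain and for Hmox1 alone of the 6. The direction stayed in every brain fit, from 0.38 to 0.50 over the 15 alternatives run, within codes L3 (0.43) and L1 (0.38, with plus-marked library 4 alone) included. All plus-marked brain libraries were also deeper than all minus-marked ones, and the part of depth in this difference was not tested.

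**Figure D3:**
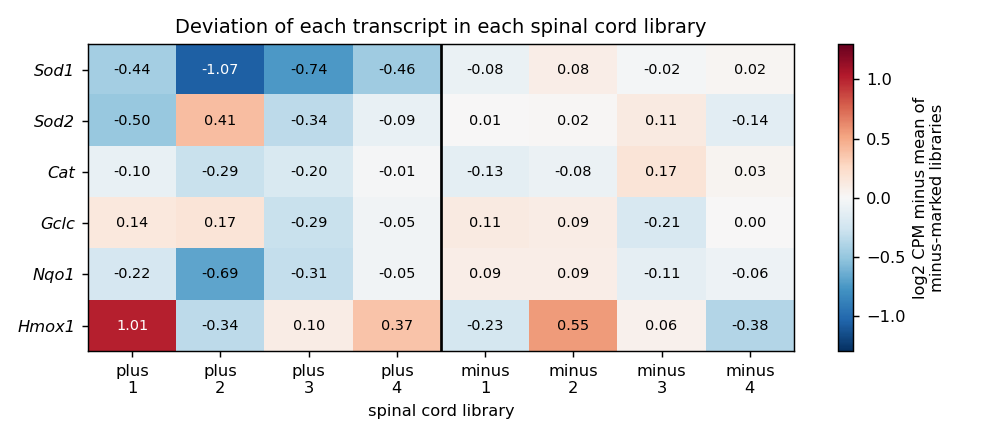
Deviation of each gene in each spinal cord library from the mean of the minus-marked libraries, in log2 CPM, plus-marked libraries on the left and minus-marked ones on the right of the line, colour and printed number giving the same value. Sod1 is negative in all 4 plus-marked libraries, from -1.07 in library 2 to -0.44 in library 1. Nqo1 and Cat are also negative in all 4, from -0.69 in library 2 to -0.05 in library 4 and from -0.29 to -0.01 in these libraries. Sod2, Gclc and Hmox1 take both signs there.

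The plus-marked spinal cord libraries did not move as a block. Library 2 had the lowest Sod1, Nqo1 and Cat levels of all 8 spinal cord libraries and the highest Sod2 and Gclc levels. Library 1 had the highest Hmox1 and the lowest Sod2 level. Of the other 5 genes, Nqo1 lay nearest to Sod1 over the 8 spinal cord libraries, at a root mean square distance of 0.27. The distance is between log2 CPM values, each centred on its minus-marked mean, so it includes the shift between the marks. It does not separate that shift from likeness between single libraries, and it was not set against the other genes tested. Cat came next at 0.40, Gclc lay at 0.54, and Hmox1 was farthest at 0.74.

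Ratios of counts within 1 library do not depend on how libraries are scaled. Of the 15 ratios that the 6 genes form, 4 did not overlap between the marks in spinal cord, and each of these held Sod1. The Sod1 to Cat ratio was 0.370 ± 0.0463 in plus-marked and 0.533 ± 0.0534 in minus-marked spinal cord, and the Sod1 to Gclc ratio was 0.694 ± 0.162 and 1.08 ± 0.117 in these groups (SD, n = 4 each). The Nqo1 to Sod1 ratio was 0.582 ± 0.0384 in plus-marked and 0.453 ± 0.0397 in minus-marked spinal cord, and the Hmox1 to Sod1 ratio 0.271 ± 0.0682 and 0.139 ± 0.0368 (SD, n = 4 each). The Sod1 to Sod2 ratio did overlap, at 0.0887 ± 0.0339 in plus-marked and 0.122 ± 0.0117 in minus-marked spinal cord (SD, n = 4 each). Against every other gene tested, Sod1 gave ratios without overlap for 58.6% of genes in spinal cord and 4.05% in brain.

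In brain 4 of the 15 ratios did not overlap, and each of these held Hmox1. The Hmox1 to Nqo1 ratio was 0.514 ± 0.0278 in plus-marked and 0.393 ± 0.0433 in minus-marked brain (SD, n = 4 each), and those of Hmox1 to Sod1, Sod2 and Gclc were also higher in every plus-marked library. Ratios of Hmox1 to every other gene tested did not overlap for 41.8% of genes in brain and 6.14% in spinal cord. By an exact permutation test (two-sided), p was 0.0286 for all 8 of these ratios, which is the floor for 4 libraries against 4. After adjustment over the 30 ratios it was 0.107, so none passed. The size of a ratio also carries the lengths of both transcripts, so only its difference between groups is read here.

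**Figure D4:**
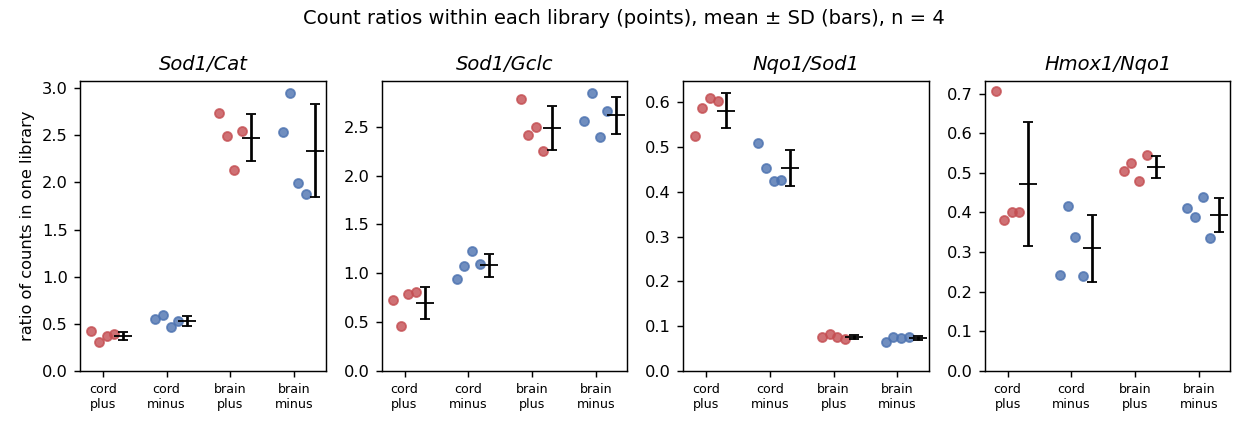
Ratios of the counts of a pair of genes within each library, for plus-marked and minus-marked spinal cord and brain; points are libraries, bars mean ± SD (n = 4), and axes start at 0. The Sod1 to Cat and Sod1 to Gclc ratios are lower and the Nqo1 to Sod1 ratio is higher in plus-marked than in minus-marked spinal cord, while the Hmox1 to Nqo1 ratio separates the marks in brain.

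Levels in the tissues themselves were compared between minus-marked spinal cord and minus-marked brain, in CPM scaled over all 16 libraries. Tissue and table cannot be told apart, and 70.7% of the 17823 genes tested were called, so a call is no mark of these genes. The libraries also differed in make-up. The 10 genes most abundant on average over all libraries of a tissue held 5.11% to 5.90% of counts in minus-marked spinal cord. In minus-marked brain they held 17.8% to 36.1%. Of the 6 genes, 4 were called, Sod2 and Nqo1 higher and Sod1 and Gclc lower in spinal cord, beside 36.7% and 34.0% of all genes in these directions. For these 4 the tissues did not overlap, as for 65.3% of all genes tested.

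Sod1 differed most of the 6. Its levels were 41.2, 46.1, 42.3 and 44.4 CPM in minus-marked spinal cord libraries 1 to 4, and 166.5, 185, 149 and 179 CPM in the brain libraries of the same numbers. The log2 fold change of spinal cord over brain was -1.96 (SE 0.12, edgeR adjusted p = 7.11e-12), a level 0.256 times that of brain. In plus-marked libraries the means were 27.4 ± 5.22 CPM in spinal cord and 166.8 ± 12.3 CPM in brain (SD, n = 4 each). Sod1 was therefore lowest in plus-marked spinal cord, followed by minus-marked spinal cord, and the brain groups lay together well above both.

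Sod2 had the opposite order, at 359 ± 22.8 CPM in minus-marked spinal cord and 237 ± 21.8 CPM in minus-marked brain (SD, n = 4 each), and the log2 fold change was 0.60 (SE 0.14, adjusted p = 0.000604 by edgeR). Nqo1 averaged 19.7 ± 1.50 CPM in minus-marked spinal cord and 12.3 ± 1.62 CPM in minus-marked brain (SD, n = 4 each), which gave 0.68 on the log2 scale (SE 0.13, edgeR adjusted p = 0.000148). Gclc averaged 40.5 ± 4.22 CPM in minus-marked spinal cord and 64.7 ± 2.04 CPM in minus-marked brain (SD, n = 4 each), which gave -0.68 on the log2 scale (SE 0.10, edgeR adjusted p = 3.56e-06). Scaled counts of the mitochondrial dismutase and of the quinone reductase were thus higher in the minus-marked spinal cord libraries than in the brain ones. Those of the cytosolic dismutase and of glutamate-cysteine ligase were lower, and tissue and table cannot be told apart in this.

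Cat and Hmox1 were not called between the tissues. Cat averaged 82.1 ± 7.13 CPM in minus-marked spinal cord and 74.5 ± 14.6 CPM in minus-marked brain (SD, n = 4 each), with a log2 fold change of 0.14 (SE 0.11, adjusted p = 0.282 by edgeR). Without brain library 4 it was 0.25 and passed the threshold, at an edgeR adjusted p of 0.0438. Hmox1 averaged 6.09 ± 1.84 CPM in minus-marked spinal cord and 4.80 ± 0.444 CPM in minus-marked brain (SD, n = 4 each), with a log2 fold change of 0.34 (SE 0.23, 95% interval -0.15 to 0.83, edgeR adjusted p = 0.196).

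**Figure D5:**
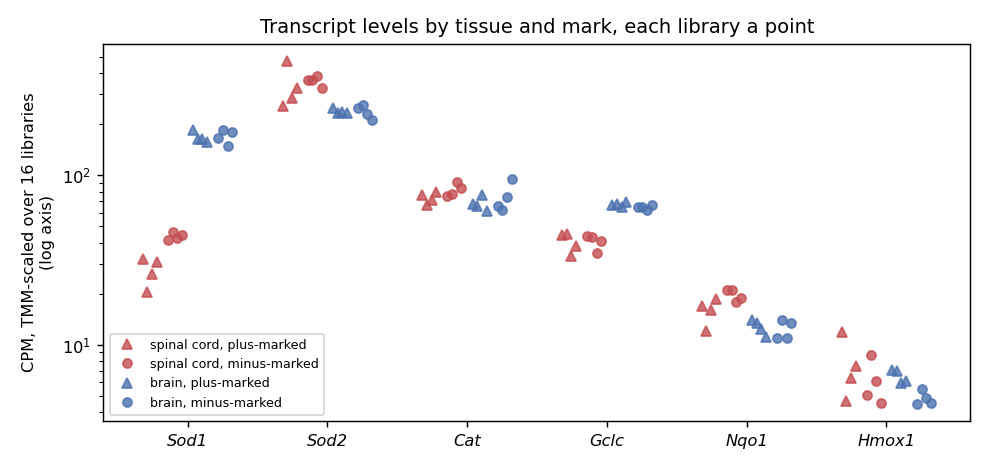
Levels of the 6 genes (CPM, TMM-scaled over all 16 libraries, log axis) in spinal cord and brain, with triangles for plus-marked and circles for minus-marked libraries; each point is a library. Levels are not per transcript length, so heights compare within a gene only; Sod1 averages 43.5 CPM in minus-marked spinal cord and 170 CPM in minus-marked brain.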

How the data were processed

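RNA depleted of ribosomal RNA was sequenced as paired reads from strand-marked (dUTP) libraries, per the labels' protocols. Read counts for every gene were deposited as unnormalised whole numbers. Trimming tool cutadapt, counting tool featureCounts, DESeq2 and build mRatBN7.2 are listed, without versions, per the submitters' processing notes. The aligner, the strand setting and how reads shared between similar genes were assigned remain not given in the sources used here, so near-identical copies may split reads. Plus and minus marks in the column names were read as genotypes, and 12 early-stage columns were not used.

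Tests used the quasi-likelihood method of edgeR 4.0.16 under R 4.3.3 (filterByExpr, TMM scaling, robust F test, two-sided, Benjamini-Hochberg adjustment over all genes tested, threshold 0.05), each tissue on mark alone. Tissue differences came from a joint fit of 16 libraries. Standard errors were derived from the F statistic, and 95% intervals use the total degrees of freedom of that test, residual plus prior. Log2 CPM used a prior count of 2. The fits were checked on simulated data with known changes. Alternatives were DESeq2 1.42.0, its size factors, no count filter, dropping the 10 most abundant genes from library sizes, a term for or subset by the lane-like code, a block by library number, and leaving out each library. Count ratios and likeness were computed per library.

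All 6 genes are reported in every comparison. A longer pathway list and cell type markers had also been set, but no identifier beyond the 6 could be named, so none of them was tested and the genes closest in pattern could be sought among the 6 alone. The 6 genes and these lists were chosen with earlier results of these data known. Count ratios were added after the data were seen.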

Additional observations from a re-analysis of the deposited data

Results flagged for a closer look

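The effect of mark on Sod1 differed between the tissues by the interaction term of the joint fit. The effect in spinal cord minus that in brain was -0.64 on the log2 scale (SE 0.16, edgeR adjusted p = 0.0375), from log2 fold changes of -0.66 in spinal cord and -0.02 in brain. In spinal cord all 4 plus-marked libraries lay below all 4 minus-marked ones, while in brain the sign turned without plus-marked library 4 or minus-marked library 2. The call was lost in 11 of 16 fits with 1 library left out. With the library number as a block, which the labels do not state, the edgeR adjusted p was 0.0206. There the call was lost in 4 of 16 such fits. No library was flagged as far from the others of its group among the 24 combinations of gene and group examined, where chance flags about 1 in 20. The rule needs a gap above 0.829 of the range of 4 values, so it catches only extreme gaps. Unflagged were Sod2 in plus-marked spinal cord library 2 (548 CPM) and Hmox1 in library 1 (13.7 CPM). Without these libraries the log2 fold changes went from -0.09 to -0.30 and from 0.33 to 0.02.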

How the results depend on the processing

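The lower Sod1 level in spinal cord stayed past the threshold, from -0.79 to -0.55, under every alternative with several libraries of each mark. It missed it at -0.53 within code L24, where 1 minus-marked library enters. The Sod1 difference between spinal cord and minus-marked brain stayed between -2.02 and -1.92. Some uncalled fold changes changed sign, not all of them near 0. In spinal cord, Gclc became 0.0074 with DESeq2 size factors and 0.0073 with DESeq2, 0.13 with code L24 as a term, 0.15 within L24 and 0.084 within the other codes. Sod2 became 0.014 with that term and 0.43 within the other codes. Hmox1 went from 0.33 with all libraries to -0.40 within the other codes. In brain, Sod2 became -0.00022 with DESeq2 size factors, -0.00021 with DESeq2, -0.028 with code L1 as a term and -0.096 within L3, Cat 0.12 within L3 and Nqo1 -0.13 within L1. For the tissue difference, Cat became 0.013 with DESeq2 size factors and 0.013 with DESeq2. None of these passed the threshold, and the cause was not tested.

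With 1 library left out, brain log2 fold changes ranged from -0.083 to 0.021 for Sod1, -0.056 to 0.050 for Sod2 and -0.0085 to 0.12 for Nqo1. Spinal cord ones ranged from -0.081 to 0.070 for Gclc and -0.30 to 0.0095 for Sod2. The tissue difference ranged from -0.16 to 0.050 for Cat, -0.14 to 0.015 for Gclc, -0.43 to 0.10 for Hmox1, -0.31 to 0.0061 for Sod2 and -0.73 to -0.53 for Sod1. Minus-marked spinal cord over brain ranged from 0.038 to 0.25 for Cat. Calls over all genes ranged from 1175 to 2114 in spinal cord, 8 to 60 in brain and 215 to 647 for the tissue difference. They were 2312, 41 and 498 with all libraries. In spinal cord the count moved by over 1.5 times without plus-marked library 3 (1463) and without minus-marked library 1 (1341), 2 (1175) or 3 (1398). Spinal cord gave 267 within L24 (198 higher, 69 lower) and 1089 within the other codes (396 higher, 693 lower). Brain gave 74 with no count filter, 210 with DESeq2 and 71 within L1 (21 higher, 50 lower), and the tissue difference 1129 with DESeq2 (568 higher, 561 lower).

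No paired analysis was possible within a tissue because plus-marked and minus-marked libraries share no number. Across tissues, deviations of same-numbered libraries correlated from -0.07 to 0.25 over 16182 genes, above 0.1 in 6 of 8 pairs. For 7 of 8 the own number correlated best among libraries of the same mark, a hint from the data, not the design, that the numbers may pair libraries. The fit without the block was kept because the labels state no pairing and not every pair was above 0.1. With number as a replicate block, 696 genes were called for the tissue difference and 12613 for minus-marked spinal cord against brain, and the Sod1 values were -0.66 (edgeR adjusted p = 0.0206) and -1.96. Fits with the block and 1 library left out were added after the data were seen. The Sod1 call for the tissue difference was lost in 4 of 16, those without plus-marked or minus-marked library 3 of either tissue. The edgeR adjusted p ranged from 0.0125 to 0.0738. Leaving out either library of a number gave nearly the same fit, since the block then absorbs the remaining one. The 16 fits are therefore not 16 separate checks. The early-stage comparisons were not run.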

Other observations

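For Hmox1 and Sod1 the highest library of each group had the same name in spinal cord and brain, while the lower places did not all match. For Sod2, Cat, Gclc and Nqo1 the highest library had different names in spinal cord and brain, in plus-marked and in minus-marked libraries alike. Among plus-marked libraries, library 1 had the highest Hmox1 level in spinal cord (13.7 CPM) and in brain (6.12 CPM), and among minus-marked ones, library 2 had the highest in spinal cord (10.02 CPM) and in brain (4.70 CPM). For Sod1 the same libraries led their groups, plus-marked library 1 with 36.9 CPM in spinal cord and 160 CPM in brain, and minus-marked library 2 with 53.2 CPM in spinal cord and 160 CPM in brain. By contrast, plus-marked library 2 was lowest of its group in spinal cord for Hmox1 (5.37 CPM) and Sod1 (23.9 CPM), but second highest in brain for both (6.06 and 141 CPM). Plus-marked library 4 was second for Sod1 in spinal cord (36.4 CPM) and lowest of its group in brain (135.5 CPM). The labels do not say that equal numbers mark 1 animal, and these places were noticed after the values were seen and not tested.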
